A study of Mus musculus with 4 samples.

Results

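The subunits of the AMPA and NMDA glutamate receptors and the RNA editing enzyme gene Adarb1 were examined in lumbar spinal cord RNA of wild type (WT) and G93A mice given spermidine (SD) or vehicle. The members were chosen by name and are Gria1, Gria2, Gria3, Gria4, Grin1, Grin2a, Grin2b, Grin2c, Grin2d and Adarb1. All 10 are among the 18674 gene names of the deposited table, in which they hold 20 of the 23750 transcript rows. A value of a gene is the mean of its rows. The 4 libraries, 1 for each condition, were made from WT mice without SD (WT vehicle) or with it (WT + SD) and from transgenic mice without SD (G93A vehicle) or with it (G93A + SD). Where 4 values follow each other, they are in this order of libraries. SD or PBS was given for 30 days, 4 times a week, and the mice were 100 days old when the cord was taken. The G93A mice are males of a high-expresser line that carries many copies of a mutant human SOD1 gene under its own promoter, so that the mutant protein is made in neurons and glia alike, on a mixed B6/SJLF1 background. How many animals went into each library was not given in the sources used here. With 1 library per condition no difference has a replicate check, no test between conditions was made, and all ratios below describe these libraries.

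AMPA receptors are tetramers of the products of Gria1 to Gria4 (GluA1 to GluA4) and carry most fast excitatory transmission in the spinal cord. NMDA receptors combine the obligatory GluN1 subunit, from Grin1, with GluN2 subunits from Grin2a to Grin2d, which set the speed and the magnesium block of the channel. Whether an AMPA receptor lets calcium pass depends on GluA2: ADAR2, the product of Adarb1, converts an adenosine in the Gria2 pre-mRNA to inosine, so that a glutamine codon in the pore loop (the Q/R site) is read as arginine, and receptors that hold this edited subunit pass little calcium. Loss of ADAR2 activity in motor neurons and calcium entry through unedited receptors have been studied as a route of motor neuron death in ALS, which is why the levels of these genes are of interest in this model.

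The coding sequence around the Q/R codon is shown for the AMPA subunit genes, because it is the stretch on which Adarb1 acts in Gria2 and by which the subunits differ in calcium passage. Capitals mark the Q/R codon in the GENCODE M21 transcripts (GRCm38), written 5′ to 3′ as DNA and as the genome encodes it.
Gria1: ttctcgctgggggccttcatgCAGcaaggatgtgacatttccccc
Gria2: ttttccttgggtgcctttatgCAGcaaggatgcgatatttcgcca
Gria3: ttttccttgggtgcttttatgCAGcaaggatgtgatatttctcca
Gria4: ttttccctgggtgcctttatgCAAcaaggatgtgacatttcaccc
The genome holds a glutamine codon in all of them, CAG in Gria1, Gria2 and Gria3 and CAA in Gria4, and only the Gria2 transcript is known to be edited there efficiently. In Gria2 the codon lies at chr3:80706911-80706913 on the minus strand, in exon 11 of 16. Over these 45 bases Gria3 differs from Gria2 at 3 positions, Gria4 at 6 and Gria1 at 9. The deposited table holds expression values and no bases of reads, so the edited share of Gria2 was not measured here.

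The unit of the table is not named, and they are treated here as RPKM (reads divided by transcript length and by the size of the library), so that levels of different genes can be set side by side. The depth is not given. From the steps between low values, searched within a preset range, it was estimated at 36800000 to 38600000 read pairs per library. By this estimate the read pairs behind a value of a member run from about 123 (Grin2a in G93A vehicle) to about 9709 (Adarb1 in WT + SD). The lumbar Hox genes Hoxa10, Hoxc10 and Hoxd10 were detected in every library, between 4.97 and 20.2 RPKM, and all 3 were lower in G93A, with median log2 ratios of -0.53 under vehicle and -0.69 under SD, while the forebrain gene Tbr1 was near 0 and Neurod6 was between 1.19 and 1.64 RPKM. Of the sensory ganglion genes Trpv1, Scn10a, Prdm12 and Avil, the highest value in any library was 0.774 RPKM (Avil in G93A + SD).

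In the WT vehicle library the most abundant member was Grin1, with 63.5 RPKM, followed by Gria4 (37.5 RPKM), Adarb1 (36.3 RPKM), Gria2 (30.4 RPKM), Gria3 (25.7 RPKM) and Gria1 (24.6 RPKM). The Grin2 genes were an order of magnitude lower, with Grin2d at 3.69, Grin2c at 3.54, Grin2a at 1.87 and Grin2b at 1.15 RPKM. The WT + SD library had the same order except that Grin2c (3.67 RPKM) stood above Grin2d (3.37 RPKM). In G93A vehicle Grin1 was followed by Adarb1, Gria1, Gria4, Gria2 and Gria3, the first 4 of these between 23.1 and 24.5 RPKM. In G93A + SD Gria1 stood first, at nearly the level of Grin1, and Gria2 stood above Gria4 and Adarb1. Without replicates the order of neighbours as close as Gria1 and Gria3 in WT vehicle, or Grin2c and Grin2d, is not established.

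**Figure D1:**
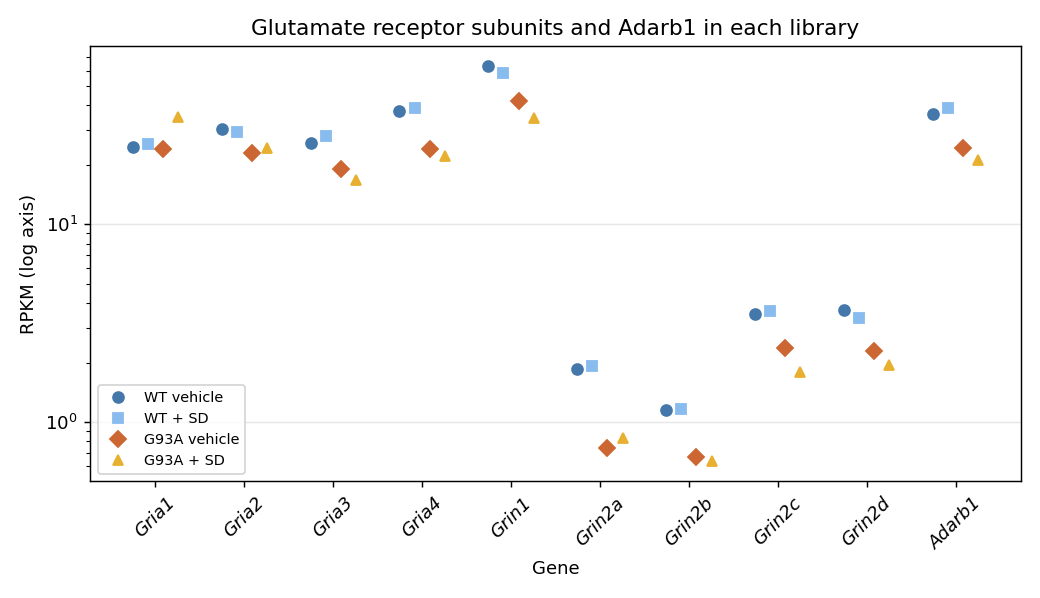
Level of each gene (RPKM, log axis) in each of the 4 libraries, 1 point per library and no error bars because each condition has 1 library. As deposited, for every gene except Gria1 both WT points lie above both G93A points, which relative to 9 pan-neuronal genes (expressed by all neurons) does not hold for Gria2 and Gria3, and Gria1 is highest in G93A + SD at 35 RPKM.

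Among the AMPA subunits, Gria4 was the most abundant in WT cord and, as deposited, showed the largest difference between genotypes, while relative to pan-neuronal genes Gria1 differed more (log2 ratios 0.41 and 1.03). Gria4, whose GluA4 subunit gives fast receptors and is prominent in spinal motor neurons, had 37.5 RPKM in WT vehicle and 39.0 in WT + SD, against 24.0 in G93A vehicle and 22.2 in G93A + SD. It was 1.57-fold lower in G93A under vehicle and 1.75-fold lower under SD. Both WT libraries were thus well above both G93A libraries, and the WT libraries lay close together. One of its transcript rows, NM_001113181, differed more between genotypes than the others, with log2 ratios of -0.79 and -0.95 against -0.57 and -0.74 for the row that differed least. It is the shortest of the 3 Gria4 transcripts, at 2338 bases. Gria3 had 25.7, 28.0, 19.0 and 16.9 RPKM in the 4 libraries in that order. It was 1.35-fold lower in G93A under vehicle, a difference that vanished against pan-neuronal genes (log2 ratio 0.00), and 1.66-fold lower under SD, where it was -0.17 on that scale.

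Gria2 had 30.4 RPKM in WT vehicle and 29.3 in WT + SD, against 23.1 in G93A vehicle and 24.4 in G93A + SD. Its level was 1.32-fold lower in G93A vehicle and 1.20-fold lower in G93A + SD than in the WT library of the same treatment, the smallest difference of the genes that were lower in both, and relative to pan-neuronal genes it was higher instead (log2 ratios 0.04 and 0.30). Its 3 rows gave log2 ratios of -0.41 to -0.39 under vehicle and -0.38 to -0.21 under SD, so that under SD the size depends on the transcript model.

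Gria1 departed from the other subunits. It had 24.6 RPKM in WT vehicle and 25.4 in WT + SD, against 24.1 in G93A vehicle and 35 in G93A + SD. The first 3 libraries are nearly level and the G93A + SD library stands above them, 1.45-fold higher than G93A vehicle and 1.38-fold higher than WT + SD. Its rows had log2 ratios of 0.53 and 0.54 between the G93A libraries, which is short of the 1.5-fold threshold. They are transcripts of the same gene that may count the same reads, so their agreement is no separate support. No window of 53 bases (the read length) of the Gria1 transcript occurs in a transcript of another gene. About 7395 read pairs were estimated behind Gria1 in G93A + SD and about 5013 in G93A vehicle, so that counting of reads gives an error of under 2% on either value, while the spread between animals is unknown.

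The composition of the AMPA pool differed accordingly. Of the summed RPKM of Gria1 to Gria4, Gria4 made up 31.7% in WT vehicle and 32.0% in WT + SD, but 26.6% in G93A vehicle and 22.6% in G93A + SD. Gria1 made up 20.8% and 20.9% in the WT libraries, 26.7% in G93A vehicle and 35.5% in G93A + SD. The share of Gria2, by contrast, lay between 24.1% and 25.7% in the 4 libraries, although a gene's share depends on how its rows are combined. A share within a library does not change with the scaling of libraries. The summed level of the AMPA subunits was 118 RPKM in WT vehicle and 122 in WT + SD, against 90.2 in G93A vehicle and 98.4 in G93A + SD.

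**Figure D2:**
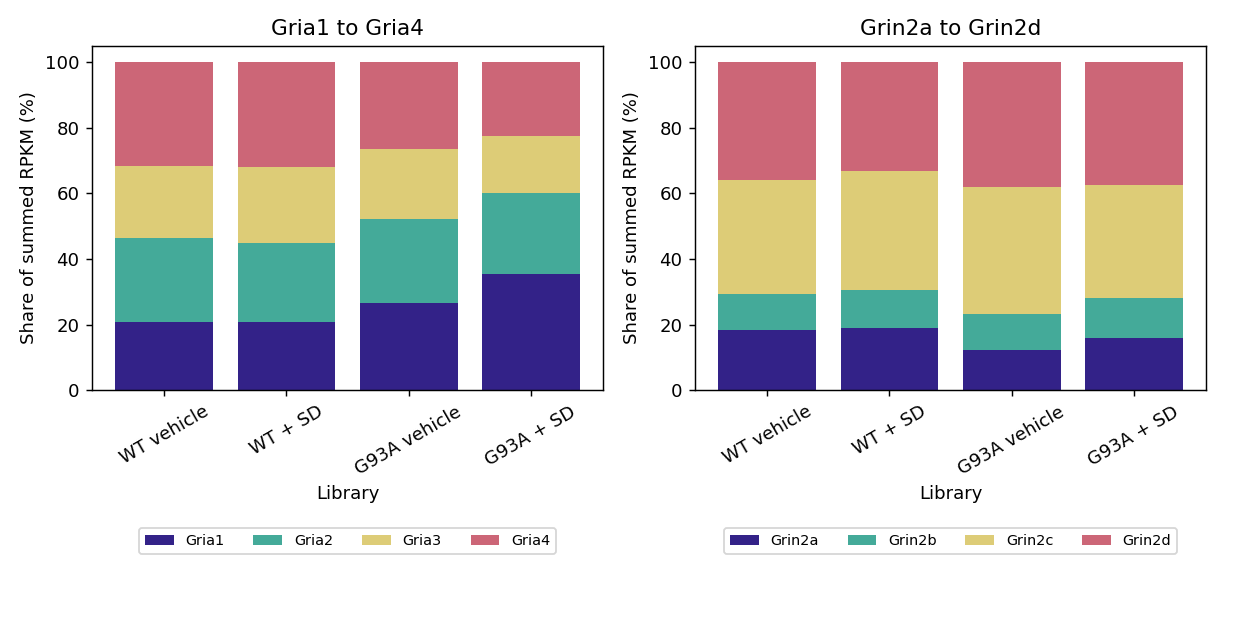
Share (percent) of each gene in the summed RPKM of Gria1 to Gria4 (left) and of Grin2a to Grin2d (right) in each library, 1 bar per library. The Gria1 part of the left bars is 20.8% in WT vehicle and 35.5% in G93A + SD, the Gria2 part stays between 24.1% and 25.7%, and the Grin2a part of the right bars is smallest in G93A vehicle at 12.2%.

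All NMDA subunit genes were lower in G93A than in WT, under vehicle and under SD. Grin1, the subunit every NMDA receptor needs, had 63.5 RPKM in WT vehicle and 58.6 in WT + SD, against 41.9 in G93A vehicle and 34.7 in G93A + SD. It was 1.52-fold lower in G93A under vehicle and 1.69-fold lower under SD, and its 3 rows gave log2 ratios of -0.60 under vehicle and -0.78 to -0.75 under SD. The antisense gene Grin1os covers part of its exons, and 19.0% of the 53-base windows of Grin1 also occur there on the opposite strand. The methods name no step of library preparation that keeps the strand, and how counting treated it is not given. Reads of Grin1 and Grin1os over these windows may therefore not be told apart, and the level of Grin1 is uncertain to that extent.

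Grin2a, whose GluN2A subunit gives fast NMDA receptors of mature synapses, had 1.87 RPKM in WT vehicle and 1.92 in WT + SD, against 0.739 in G93A vehicle and 0.836 in G93A + SD. At 2.53-fold under vehicle and 2.29-fold under SD, it showed the largest difference between genotypes of the 10 genes in both comparisons as deposited, though not under SD after adding 1 RPKM to each value (log2 ratio -0.67) or relative to pan-neuronal genes (-0.63, against 1.03 for Gria1). However, 47.6% of its 53-base windows also occur in the transcript of Gm7328, and no source used here says to which gene reads from them went, which leaves its level uncertain. Grin2b, whose GluN2B subunit predominates early in development, had 1.15, 1.16, 0.665 and 0.633 RPKM in the 4 libraries in that order. The G93A values were 1.72-fold and 1.84-fold below the WT values of the same treatment.

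Grin2c and Grin2d encode subunits that give receptors with a weaker magnesium block. Grin2c had 3.54 RPKM in WT vehicle and 3.67 in WT + SD, against 2.37 in G93A vehicle and 1.80 in G93A + SD. It was 1.497-fold lower in G93A under vehicle, just short of the threshold, and 2.04-fold lower under SD. Grin2d had 3.69, 3.37, 2.30 and 1.95 RPKM in the same order of libraries and was 1.60-fold and 1.73-fold lower. In its case 9.13% of the 53-base windows are shared with the antisense gene Gm45441. Within the Grin2 genes, Grin2c and Grin2d together dominated every library, and the share of Grin2a was 18.2% in WT vehicle and 19.0% in WT + SD, against 12.2% in G93A vehicle and 16% in G93A + SD.

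The ratio of Grin1 to the sum of the Grin2 genes was 6.20 in WT vehicle and 5.80 in WT + SD, against 6.90 in G93A vehicle and 6.65 in G93A + SD. An excess of Grin1 over the sum of the Grin2 genes was therefore seen in every library, and it was somewhat larger in the G93A libraries. That sum leaves out Grin3a and Grin3b, which also encode NMDA receptor subunits. Grin3a alone had 10.4, 10.1, 7.78 and 8.17 RPKM, against 10.2, 10.1, 6.07 and 5.22 for the sum. An excess over all partners of Grin1 was not computed, and the Grin1 level carries the uncertainty from Grin1os.

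Adarb1, on chromosome 10 at chr10:77290726-77418270 of GRCm38 on the minus strand, had 36.3 RPKM in WT vehicle and 38.6 in WT + SD, against 24.5 in G93A vehicle and 21.2 in G93A + SD. The G93A level was 1.48-fold lower under vehicle and 1.82-fold lower under SD. Its 4 rows agreed to within 0.01 on the log2 scale in each comparison, but as transcripts of the same gene they may count the same reads. Adar, which encodes the widely expressed enzyme ADAR1, had 27.6 RPKM in WT vehicle and 27.5 in WT + SD, against 26.4 in G93A vehicle and 21.2 in G93A + SD. Adarb2, whose brain-restricted product ADAR3 has no known editing activity, had 2.48, 2.09, 1.08 and 1.36 RPKM in that order. As deposited, Adarb2 like Adarb1 was lower in G93A under both treatments, while Adar was nearly level under vehicle. Relative to pan-neuronal genes Adar was higher in G93A (log2 ratios 0.37 under vehicle and 0.19 under SD). On that scale Adarb2 stayed below 0 (-0.76 and -0.06).

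Relative to Gria2, its substrate transcript, Adarb1 stood at a ratio of 1.19 in WT vehicle and 1.32 in WT + SD, against 1.06 in G93A vehicle and 0.872 in G93A + SD. Both WT libraries were above both G93A libraries in this ratio. Relative to Adar the ratio was 1.31, 1.40, 0.927 and 1.0 in the same order. These ratios compare RNA levels over the whole cord and do not measure editing in any cell.

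Counted at the threshold of 1.5-fold, 5 of the 10 genes (Gria4, Grin1, Grin2a, Grin2b and Grin2d) were lower in G93A than in WT under vehicle, and 0 were higher, where 10.5% of all gene names tested were lower and 20.7% higher. Among names with a mean of at least 1 RPKM, where low values count less, 4.68% were lower, against 4 of the 9 genes with such a mean. In G93A + SD against WT + SD, 8 of the 10 genes were lower, all but Gria1 and Gria2, and 0 were higher. In that comparison 12.8% of all names were lower and 23.8% higher. Of the names with a mean of at least 1 RPKM 8.12% were lower, against 7 of the 9 genes with such a mean. Divided by the pan-neuronal list described further on, only Grin2a was lower in each comparison (1 gene instead of 5 and of 8), as were 5.49% of all names under vehicle and 5.09% under SD. On that scale Gria1 was higher under SD, as were 54.5% of all names. At 2-fold, Grin2a was lower under vehicle, as were 5.60% of all names, and Grin2a and Grin2c were lower under SD, as were 6.18% of all names. The median log2 ratio of the 10 genes was -0.59 under vehicle and -0.80 under SD, while over the 12987 names with a mean of 1 RPKM or more it was 0.05 in both. For 9 of the 10 genes, all but Gria1, both WT libraries as deposited were above both G93A libraries (relative to pan-neuronal genes not for Gria2 and Gria3), which held for 28.0% of all names. In bulk RNA, fewer cells of a type and less RNA per cell cannot be told apart.

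**Figure D3:**
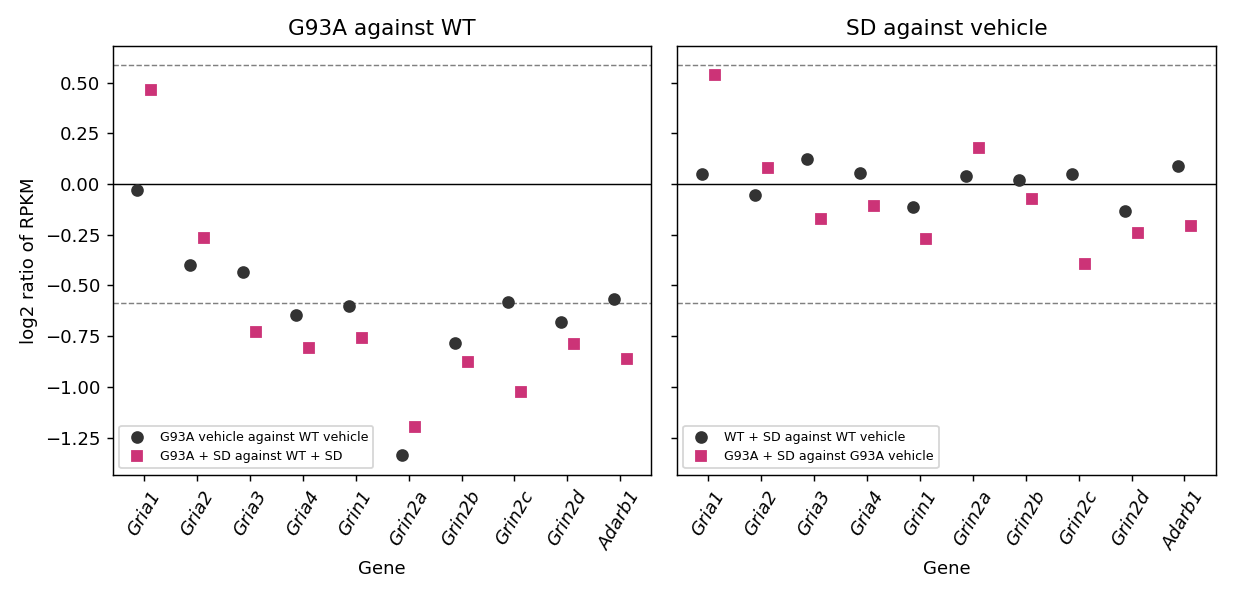
Log2 ratio of RPKM for each gene in G93A against WT (left) and in SD against vehicle (right), 1 point per pair of libraries; the dashed lines mark 1.5-fold in either direction. As deposited, 9 genes lie below 0 in both comparisons of genotype and Gria1 lies at -0.03 under vehicle and 0.46 under SD, and no gene passes the dashed lines on the right. Divided by the pan-neuronal list, Gria1, Gria2 and Gria3 lie above 0 under vehicle and Gria1 and Gria2 under SD.

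Between SD and vehicle, 0 of the 10 genes reached 1.5-fold in either genotype as deposited, and relative to pan-neuronal genes Gria1 was higher in G93A (log2 ratio 0.67), as were 11.0% of all names. In WT + SD against WT vehicle 8.82% of all names were at least 1.5-fold lower and 7.40% higher. The 10 genes differed by less than 1.10-fold between the WT libraries, with log2 ratios from -0.13 (Grin2d) to 0.12 (Gria3) and a median of 0.04. In G93A + SD against G93A vehicle 7.46% of all names were lower and 8.89% higher. Here the log2 ratios of the 10 genes ran from -0.39 (Grin2c) to 0.54 (Gria1), with a median of -0.14. The genes lower in G93A + SD than in G93A vehicle were Gria3, Gria4, Grin1, Grin2b, Grin2c, Grin2d and Adarb1, each by less than 1.5-fold and for Gria4 and Grin2b not relative to pan-neuronal genes, and Gria1, Gria2 and Grin2a were higher. In this comparison 4 of 10 motor neuron genes were at least 1.5-fold lower (median log2 ratio -0.46), 8 of 9 pan-neuronal genes were below 0 (median -0.14) and all 7 astrocyte genes above it (median 0.24), and their part in the differences was not tested. The value of Gria2 in G93A + SD was 1.05-fold that in G93A vehicle, below both WT libraries. The comparisons of SD and of genotype share libraries and are not independent of each other.

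Markers of neurons were also lower in the G93A libraries. Of 9 pan-neuronal genes 2 passed 1.5-fold downwards under vehicle (10.5% of all names) and 4 under SD (12.8% of all names), and all 9 had negative log2 ratios in both comparisons of genotype. Their median log2 ratio was -0.39 under vehicle and -0.51 under SD, and their summed level was 2341 RPKM in WT vehicle and 2345 in WT + SD, against 1590 in G93A vehicle and 1389 in G93A + SD. Snap25, of the synaptic release machinery, had 1268, 1292, 782 and 661 RPKM in this order. Of 10 motor neuron genes 6 were at least 1.5-fold lower under vehicle and 7 under SD, with medians of -0.59 and -0.90. Their summed level was 445, 420, 244 and 164 RPKM in the 4 libraries in that order, most of it from Nefh. The defining motor neuron gene Chat had 9.83, 8.57, 6.55 and 4.33 RPKM.

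Markers of astrocytes and microglia were higher in the G93A libraries. The 7 astrocyte genes summed to 847 RPKM in WT vehicle and 790 in WT + SD, against 2949 in G93A vehicle and 3522 in G93A + SD (most of the G93A sums from Gfap), and had median log2 ratios of 1.0 and 1.29. The 7 microglia genes summed to 151, 138, 734 and 757 RPKM. The 5 oligodendrocyte precursor genes summed to 50.0, 51.5, 66.4 and 74.7 RPKM, and were thus also higher in G93A. The 7 oligodendrocyte genes summed to 8843, 9100, 7204 and 6616 RPKM, a lower sum in G93A, and had median log2 ratios of -0.23 and -0.38. Astrocytes and oligodendrocyte precursors also express AMPA receptor genes. The part of these cell types in the levels of the receptor genes was not tested.

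Set against the pan-neuronal list (each value divided by the geometric mean of that list in its library), the median log2 ratio of the 10 genes came to -0.15 under vehicle and -0.24 under SD. Relative to WT vehicle, the log2 geometric mean of the list was -0.44 in G93A vehicle and -0.57 in G93A + SD, and each ratio shifts by about that much. On this scale Grin2a remained lower by more than 1.5-fold in both comparisons, with -0.90 and -0.63, and Gria1 was higher, with 0.41 under vehicle and 1.03 under SD. Gria2 turned to 0.04 and 0.30, and Gria3 lay at 0.00 and -0.17. Gria4 (-0.21 and -0.25), Grin1 (-0.16 and -0.19) and Adarb1 (-0.13 and -0.30) stayed below 0.

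**Figure D4:**
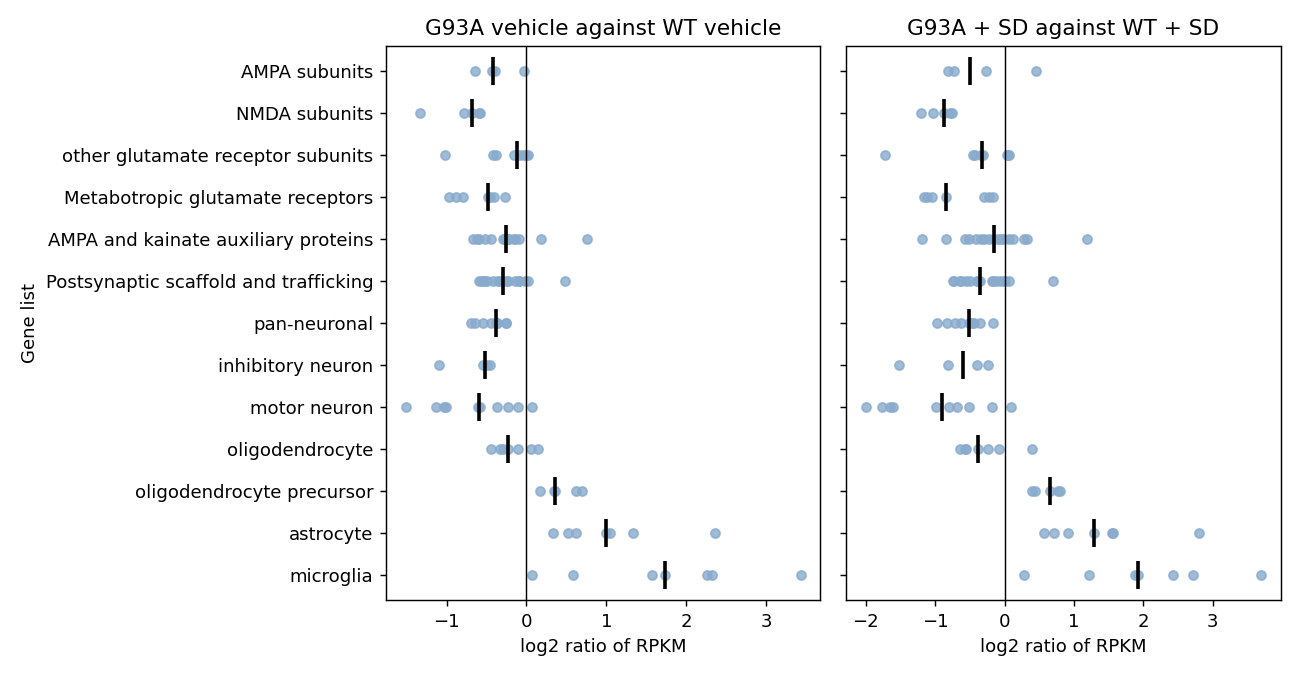
Log2 ratio of RPKM in G93A vehicle against WT vehicle (left) and in G93A + SD against WT + SD (right) for the genes of each list, 1 point per gene, with a bar at the median of the list. As deposited, the NMDA subunits (medians of -0.68 and -0.88) lie left of 0 in both panels, as does the median of the motor neuron genes, while the astrocyte and microglia genes lie right of 0; Gria1 is the AMPA subunit right of 0 in the right panel.

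The counts of the lists that follow stand beside 10.5% of all names lower and 20.7% higher under vehicle, and 12.8% lower and 23.8% higher under SD. Of 8 other ionotropic glutamate receptor genes (Grin3a, Grin3b, the kainate receptor genes Grik1 to Grik5 and Grid1), 1, Grin3b, was at least 1.5-fold lower in each comparison of genotype and 0 were higher, with median log2 ratios of -0.12 under vehicle and -0.32 under SD. The log2 ratios of Grin3b were -1.02 and -1.73, the latter beyond that of any of the 10 genes under SD. Grik5 had 13.9, 11.7, 13.1 and 12.2 RPKM in the 4 libraries in that order, and Grik2 had 7.05, 7.46, 7.06 and 7.79 RPKM. As deposited these kainate receptor genes were nearly level between genotypes, and relative to pan-neuronal genes both were higher in G93A, with log2 ratios under SD of 0.62 for Grik5 and 0.63 for Grik2. Grid1, for a delta receptor subunit, had 11.1, 10.5, 8.56 and 7.70 RPKM. The metabotropic receptor genes, which couple glutamate to G proteins, were at least 1.5-fold lower for 3 of 7 under vehicle and 4 of 7 under SD, and 0 were higher. Grm3 had 11.1, 11.8, 6.40 and 5.73 RPKM, and Grm5 had 14.8, 15.2, 12.2 and 13.0 RPKM. Grm7 had 11.9, 11.1, 8.63 and 9.10 RPKM, and Grm4 had 6.54, 5.60, 3.54 and 2.51 RPKM. As deposited, both WT libraries were above both G93A libraries for all 4, but relative to pan-neuronal genes Grm5 was higher in G93A under both treatments and Grm7 under SD.

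Of 17 genes for auxiliary proteins of AMPA and kainate receptors, 3 were lower and 1 was higher under vehicle, and 2 were lower and 1 higher under SD. Cacng2, which encodes stargazin, a protein that brings AMPA receptors to the synapse, had 17.4 RPKM in WT vehicle and 18.0 in WT + SD, against 10.9 in G93A vehicle and 7.86 in G93A + SD. Nptx1, for a pentraxin that clusters AMPA receptors, had 35.4, 36, 23.4 and 20.1 RPKM. Cacng7, the most abundant of the list, had 59.6, 60.1, 49.6 and 45.2 RPKM and did not reach 1.5-fold, nor did Nptxr, a pentraxin receptor gene, at 16.4, 15.6, 13.4 and 13.3 RPKM. Relative to pan-neuronal genes both were higher in G93A, with log2 ratios under vehicle and SD of 0.18 and 0.15 for Cacng7 and 0.15 and 0.34 for Nptxr. On that scale Cacng2 (-0.23 and -0.63) and Nptx1 (-0.16 and -0.28) stayed below 0. Of 17 genes for postsynaptic scaffold and trafficking proteins, 1 was lower under vehicle, and 4 were lower and 1 higher under SD. Nsf, an ATPase that binds GluA2, had 243, 244, 164 and 145 RPKM, and Dlg4, which encodes the scaffold PSD-95, had 53.4, 48.6, 43.4 and 37 RPKM. Camk2b, for a subunit of the kinase CaMKII, had 61.1, 59.2, 43.2 and 42.0 RPKM. Relative to pan-neuronal genes Dlg4 was higher in G93A (log2 ratios 0.14 and 0.17) and Camk2b was near 0 (-0.06 and 0.07). Nsf stayed below 0 on that scale (-0.13 and -0.18). As deposited Dlg1, a relative of Dlg4, was nearly level at 26.9, 29.1, 27.3 and 27.9 RPKM. Relative to pan-neuronal genes it was higher in G93A (log2 ratios 0.46 and 0.51).

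Of 10 genes of glutamate release, uptake and co-agonist supply, 2 were lower and 1 higher under vehicle, and 3 were lower and 2 higher under SD. Slc17a6, the vesicular glutamate transporter of spinal excitatory neurons, had 58.7, 60.1, 36.5 and 32.2 RPKM in the 4 libraries in that order. Slc1a2, the main glial glutamate transporter, had 216, 211, 216 and 233 RPKM. As deposited Slc17a6 was lower in both G93A libraries, while Slc1a2 was nearly level. Relative to pan-neuronal genes Slc1a2 was higher in G93A (log2 ratios 0.43 under vehicle and 0.71 under SD) and Slc17a6 stayed lower (-0.25 and -0.33). The other glial glutamate transporter gene, Slc1a3, which is also in the astrocyte list, had 32.7, 29.8, 50.4 and 55.9 RPKM and was at least 1.5-fold higher in both comparisons of genotype. Glul, the glutamine synthetase of astrocytes, had 343, 262, 417 and 454 RPKM, and was at least 1.5-fold higher under SD. Slc6a9, a glycine transporter gene, had 67.4, 67.4, 55.8 and 47.9 RPKM, and relative to pan-neuronal genes its log2 ratios were 0.17 and 0.07. Of 8 other transcripts known to be edited, 0 were lower and 1 higher under vehicle, and 3 were lower and 1 higher under SD. Kcna1, a potassium channel gene, had 80.4, 84.4, 58.0 and 51.1 RPKM, and Cyfip2 had 114, 112, 77.1 and 71.8 RPKM. Cadps, a gene of vesicle release, had 77.1, 76.9, 52.1 and 44.2 RPKM, and Gabra3, a GABA receptor subunit gene, had 41.1, 43.4, 33.8 and 32.3 RPKM. As deposited all 4 were lower in the G93A libraries (relative to pan-neuronal genes not Gabra3), and Kcna1, Cyfip2 and Cadps passed 1.5-fold under SD. Of 4 genes of editing other than Adarb1 (Adar, Adarb2, Wwp2 and Aimp2), 1 was lower under each, Adarb2, and 0 were higher.

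Among 8847 gene names with a mean of at least 5 RPKM, those whose 4 log2 values, centred on their own mean, lay nearest to Gria2 were Grin3a (Euclidean distance 0.030), D430019H16Rik (0.033) and Mthfd2l (0.035). Grin3a, another NMDA receptor subunit gene, had 10.4 RPKM in WT vehicle and 10.1 in WT + SD, against 7.78 in G93A vehicle and 8.17 in G93A + SD. The nearest to Adarb1 were Creg2 (0.022), Nkrf (0.028) and Diras2 (0.029). Creg2 had 15.2, 16, 10.1 and 8.91 RPKM. Likeness over 4 libraries is a description.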

How the data were processed

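RNA of 4 libraries, 1 per condition, was measured. PolyA RNA was read at 53 bp, aligned to GRCm38 by STAR, and reads per Ensembl gene were obtained by HTSeq, according to the methods. The table deposited by the authors lists RefSeq transcripts, and the size and sum of its values fit RPKM, the unit used here. How they were made from counts is not given in the sources used here. The 3 ratio columns made by the authors were not used.

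Rows of a name were averaged. A name above 0 in either library was called at a ratio of 1.5 without a pseudocount. The members and lists were chosen with earlier results of these data known. Besides the members, at most 4 genes of a list were named, those with the highest means, and Adar and Adarb2. Grin3b and Slc1a3 were named after their values were seen. Chat, Neurod6 and other marker genes were named to check cell types and tissue. Map2 was matched as Mtap2. Some genes of the lists are not reported here. Depth was estimated from transcript lengths of GENCODE M21, known for 97.0% of rows, as the most frequent low value times length. The search was limited to a preset range of these products, so a depth outside that range could not have been found. Alternatives were scaling, pseudocounts, the choice of rows, the threshold and a filter. Calculations were tested on simulated data (pandas 2.3.3, numpy 2.4.6 and matplotlib 3.10.9 under Python 3.11.15).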

Additional observations from a re-analysis of the deposited data

Results flagged for a closer look

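The difference between genotypes had opposite signs under vehicle and under SD for Gria1, and the log2 ratio was higher by 0.49 under SD. The SD against vehicle ratio had opposite signs in WT and G93A for 6 other genes. The log2 ratio in G93A minus that in WT was 0.13 for Gria2, -0.29 for Gria3, -0.16 for Gria4, -0.092 for Grin2b, -0.44 for Grin2c and -0.29 for Adarb1. With 1 library per condition these differences were not tested, and a change of sign between ratios near 0 needs no difference at all.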

How the results depend on the processing

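The alternatives gave 100 values, of which 77 stayed within the expected counting error of the main value (or within 1.5 times a main count) and 23 did not. For a median, that error was the median over the 10 genes of the error of a single ratio. Some of the 77 could not differ, since each Grin2 gene has 1 row and the Grin2a share is the same however rows are combined. Division by the pan-neuronal list changed the sign of Gria1, Gria2 and Gria3 under vehicle, of Gria2 under SD and of Gria4 and Grin2b between the G93A libraries. The medians of the 10 genes were then -0.15 under vehicle, -0.24 under SD and -0.0096 between the G93A libraries. The genes lower at 1.5-fold were then 1 and 1 in the comparisons of genotype, and 1 gene (Gria1) was higher in G93A + SD than in WT + SD and 1 (Gria1) than in G93A vehicle. After adding 1 RPKM to each value, the medians were -0.47 and -0.68, and 3 genes were lower under vehicle. At 2-fold, 1 gene was lower under vehicle and 2 under SD. With the sum of a gene's rows the Gria2 share was 32.8% in WT vehicle and 31.0% in WT + SD, against 33.2% in G93A vehicle and 32.2% in G93A + SD, and the Adarb1 to Gria2 ratio was 1.59, 1.75, 1.41 and 1.16. With the highest row the Gria2 share in G93A + SD was 24.2%, and the ratio was 1.27 in WT + SD and 0.915 in G93A + SD. Median-ratio scaling changed the sign of 0 genes. With it 7 instead of 5 genes were lower under vehicle, since Grin2c (log2 ratio -0.61) and Adarb1 (-0.60) passed 1.5-fold. The share of all names called lower was not computed with this scaling or after adding 1 RPKM. No paired analysis was possible because each condition has 1 library and no test was made.

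No spread between animals is known, and the depth is an estimate.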

Other observations

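The following genes of the lists were picked with their values in view. Neto2, for an auxiliary protein of kainate receptors, had 9.11 RPKM in WT vehicle and 9.0 in WT + SD, against 15.4 in G93A vehicle and 20.6 in G93A + SD, so that both G93A libraries were above both WT libraries. Grin3b, for an NMDA receptor subunit found in motor neurons, had 1.77, 1.40, 0.875 and 0.422 RPKM in the same order and was lower in each G93A library than in either WT library. Dao, for D-amino acid oxidase, which breaks down the NMDA receptor co-agonist D-serine, had 4.86, 2.98, 2.25 and 1.74 RPKM. The WT vehicle library was at least 1.5-fold above the WT + SD library, and each WT library above the G93A library of the same treatment. Flna, whose transcript is also edited, had 6.94, 6.02, 15.7 and 18.8 RPKM.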
